A study of Mus musculus with 96 samples.

Results

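The genes described here are 10 that serve protein folding in the endoplasmic reticulum (ER): Hsp90b1, Hspa5, Calr, Canx, Pdia3, Pdia4, Pdia6, P4hb, Manf and Xbp1. They were taken by symbol from the 40202 genes listed for every library, and all 10 were found. The libraries come from C10, a mouse lung line labelled as alveolar type II epithelium. Each of the 96 libraries was made from 1 sorted cell with nanoSPLITS, which splits a lysed cell between RNA and protein measurement. The 48 control libraries came from cells labelled as having no treatment, and the other 48 from cells labelled RO-3306, a small molecule marketed against the mitotic kinase CDK1. Per the labels, the treated dishes received 10 nM for 36 h. No culture or passage is named, so each group counts as 1 sample, no test was possible, and no difference below has a replicate check. The question asked of the data is how the transcripts of these ER genes differed between the groups.

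Proteins that enter the secretory pathway are folded in the ER lumen by chaperones and foldases. HSP90B1 (GRP94) and HSPA5 (BiP) are the ER members of the HSP90 and HSP70 families, and calreticulin and calnexin are lectins that hold glycoproteins carrying a monoglucosylated sugar. Protein disulfide isomerases (PDIA3, PDIA4, PDIA6 and P4HB) form and rearrange disulfide bonds. P4HB is also a subunit of the prolyl hydroxylase that modifies collagen. When unfolded protein builds up, the sensors IRE1, PERK and ATF6 start the unfolded protein response. IRE1 splices the Xbp1 transcript, and XBP1 and cleaved ATF6 then raise transcription of chaperone genes, partly through a promoter sequence named the ER stress response element (ERSE). MANF is a small ER protein that binds HSPA5 and is itself a target of this response.

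The ERSE is shown because it is a sequence that part of these promoters share. It was searched as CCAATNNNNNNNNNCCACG on both strands of the 250 bases before the start of each gene, in RefSeq windows of build GRCm38.p6. A window was available for 9 of the 10 genes, all but Manf, and 5 of the 9 held the element, against 0.113% of 32851 windows of the same length (37 windows). Because the element was chosen as one tied to ER chaperone genes, this contrast is a description and not a test. Hsp90b1 held 2 copies, starting 212 and 107 bases before the gene's start, and Hspa5 held 1 at 65 bases. Calr held 1 at 162, Canx 1 at 145 and Pdia6 1 at 98 bases, and no match was present in the windows of Pdia3, Pdia4, P4hb and Xbp1. For Pdia4 alone, the bases past the start were not found in a GENCODE transcript of the gene, so the place of its window is less sure. The windows of the 5 genes with a match follow, 5′ to 3′ on the strand of the gene, with both outer blocks of the element in capitals. A copy on the opposite strand reads CGTGG first and ATTGG last. They lie at chr10:86705445-86705694 (minus strand), chr2:34771840-34772089 (plus), chr8:84846932-84847181 (minus), chr11:50325674-50325923 (minus) and chr12:17266339-17266588 (plus).
Hsp90b1: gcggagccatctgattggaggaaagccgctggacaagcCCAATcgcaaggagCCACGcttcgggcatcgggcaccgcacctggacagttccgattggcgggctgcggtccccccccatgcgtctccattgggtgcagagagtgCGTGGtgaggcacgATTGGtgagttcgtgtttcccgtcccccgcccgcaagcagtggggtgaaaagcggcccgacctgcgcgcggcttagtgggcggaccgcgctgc
Hspa5: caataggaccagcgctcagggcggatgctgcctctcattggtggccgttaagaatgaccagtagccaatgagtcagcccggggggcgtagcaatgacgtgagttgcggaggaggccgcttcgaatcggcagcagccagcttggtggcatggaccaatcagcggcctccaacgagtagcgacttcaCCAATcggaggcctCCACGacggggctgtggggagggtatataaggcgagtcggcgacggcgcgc
Calr: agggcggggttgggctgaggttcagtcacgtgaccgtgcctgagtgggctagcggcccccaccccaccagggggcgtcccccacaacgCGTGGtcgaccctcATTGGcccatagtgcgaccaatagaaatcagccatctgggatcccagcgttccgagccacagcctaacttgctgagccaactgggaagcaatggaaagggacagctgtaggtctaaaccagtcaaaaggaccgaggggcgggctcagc
Canx: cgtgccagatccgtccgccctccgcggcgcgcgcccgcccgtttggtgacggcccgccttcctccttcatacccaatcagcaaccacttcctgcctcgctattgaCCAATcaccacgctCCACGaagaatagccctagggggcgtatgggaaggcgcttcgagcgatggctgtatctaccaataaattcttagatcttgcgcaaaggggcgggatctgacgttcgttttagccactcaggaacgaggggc
Pdia6: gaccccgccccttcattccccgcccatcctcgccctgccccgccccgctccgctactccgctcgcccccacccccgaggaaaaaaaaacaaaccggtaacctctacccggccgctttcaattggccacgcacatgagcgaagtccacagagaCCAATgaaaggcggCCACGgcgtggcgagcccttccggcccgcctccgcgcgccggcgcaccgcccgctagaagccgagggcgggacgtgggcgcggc
The related elements ERSE-II (ATTGGNCCACG) and UPRE (TGACGTGG), searched likewise and without overlap with the copies above, were in 0 of the 9 windows and in 0.0304% and 0.563% of all windows. A match describes letters only, and no binding was measured.

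A cell needed 50000 counts or more over 1000 genes or more, which left 29 of 48 control cells (60.4%, exact 95% binomial interval 45.3% to 74.2%) and 37 of 48 RO-3306 cells (77.1%, 62.7% to 88.0%). Kept cells had 59979 to 6457215 counts in control and 295005 to 5321879.9 in RO-3306, and 66034079 and 92828839 counts in all. Control cells held 2109 to 10828 genes with a count (median 5177) and RO-3306 cells 2159 to 9754 (median 6951). The part of this difference in the zeros and the high single-cell values below was not tested. The median mitochondrial share was 3.40% and 4.42%, and RO-3306 cell B3 stood apart at 56.0%. The letter (A to D) in each title is not explained in the labels. These lettered sets, of 10, 8, 6 and 5 control and 10, 10, 11 and 6 RO-3306 cells, served to compare the sign of a difference between them and were each left out in turn. Against the label, alveolar type II markers summed to 9.61 of every 1e6 counts (9.61 CPM) in control cells and to 5.40 CPM in treated cells. Sftpa1, Sftpc, Sftpd, Slc34a2 and Napsa had 0 counts, which allows up to 0.0454 CPM in control cells and 0.0323 in treated ones. Krt18 and Cldn4 of the 6 epithelial markers were also at 0. The 6 mesenchymal markers all had counts and summed to 5579 CPM over control cells (1329 to 11354 by cell) and to 2523 CPM over RO-3306 cells (1263 to 13886). The macrophage list summed to 57.7 CPM (0 to 315) and 381 CPM (0 to 860.2), of which Cd68 alone gave 319.8 CPM in RO-3306, while Tyrobp was at 0. The part of these lists in the differences below was not tested.

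Together the 10 genes took a smaller share of the counts in the RO-3306 cells. Summed over control cells they held 5569.7 CPM (exact Poisson 95% interval 5552 to 5588), and over RO-3306 cells 3665 CPM (3653 to 3677). Among control cells their sum ran from 1271 CPM in cell A10 through a median of 4837 to 11591 in cell B4. Among RO-3306 cells it ran from 402 CPM in B3, the cell with the high mitochondrial share, through 3579.5 to 6481 in A2. The ranges overlapped over most of their length, and the highest values were those of control cells. As log2 of RO-3306 over control with 1 CPM added to both, which understates changes of low genes and is the scale of every ratio below, the sum differed by -0.60. It was lower in each lettered set, by -0.27, -1.03, -0.74 and -0.52 in A to D. Cell B4 carried 9.78% of all control counts, and without it the control sum was 4917 CPM and the ratio -0.42. Without Hsp90b1 the other 9 genes summed to 4695 and 3354 CPM, a ratio of -0.48. Intervals cover counting error only, since PCR copies of a molecule were counted. Reads placed at several sites were split into fractions: among cells with a count, the value was fractional in 9.52% (Hspa5) to 63.0% (Pdia3) of control cells and in 0% (Hspa5) to 66.7% (Pdia3) of RO-3306 cells, so part of these counts is shared with near-identical sequence elsewhere.

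**Figure D1:**
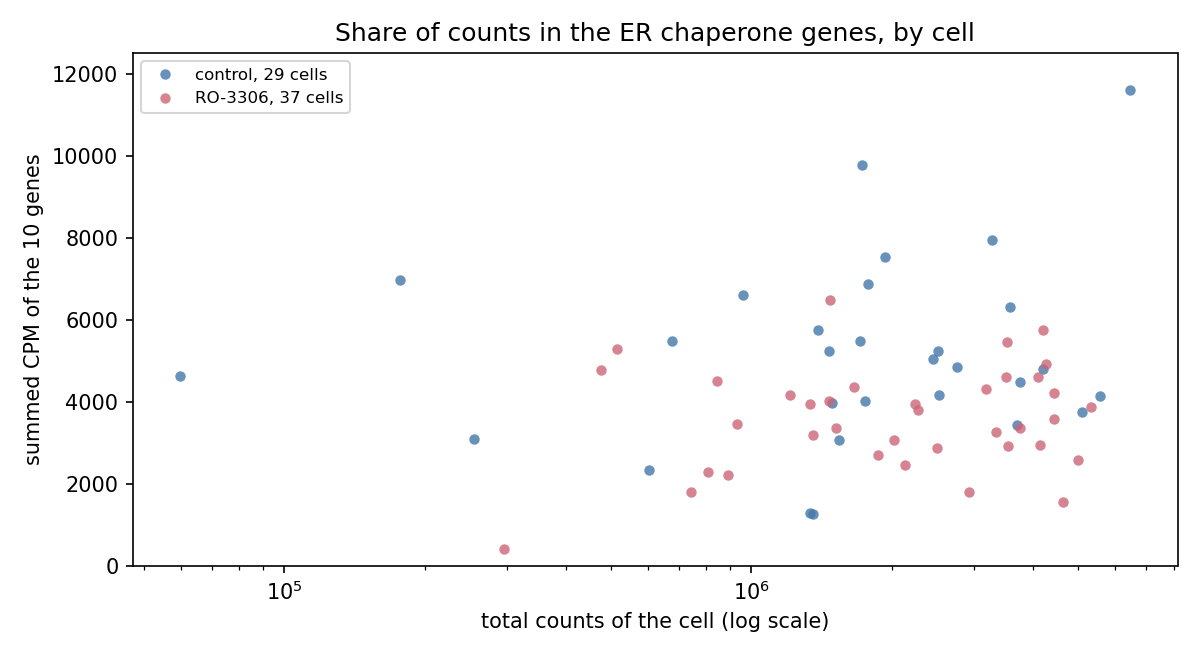
Summed CPM of the 10 ER genes in each kept cell (vertical axis) against the total counts of that cell (horizontal axis, log scale), with control cells in blue and RO-3306 cells in red. The highest point is control cell B4 at 11591 CPM, and the lowest is RO-3306 cell B3 at 402 CPM.

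Of the general chaperones, Hsp90b1, the ER form of HSP90, showed the widest difference in the sums of all 10 genes. It lies on chromosome 10 from 86526705 to 86541308 (GRCm39, the build of the counts and of the gene positions below). Control cells held 0 to 2697 CPM with a median of 477, and RO-3306 cells 0 to 1187 CPM with a median of 293. Of the control cells, 5 were above the highest RO-3306 cell, and the ranges otherwise overlapped. Summed, the level was 875 CPM in control (868 to 882) and 310.5 CPM in RO-3306 (307 to 314), 2.82-fold lower, or a log2 ratio of -1.49. It was lower in each set, by -0.43 in A and by -2.08, -1.82 and -1.41 in B, C and D. Control cell B4 held 29.1% of the control counts of Hsp90b1, and without it the ratio was -1.14. With every cell given equal weight the ratio of means was -0.96.

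Hspa5, which encodes the HSP70 chaperone BiP, lies on chromosome 2 from 34662102 to 34666541. Its span is covered over 3596 nt, or 81.0%, by Rabepk on the opposite strand (34662946 to 34690200). Reads over 2 gene spans are left out by the counting tool's default, so that the Hspa5 counts come from the 844 nt at its 5′ end, with 584 of its 2611 nt of mRNA (22.4%). Its level is therefore not comparable with that of the other genes, while its ratio between groups uses the same stretch in both. Control cells held 0 to 319 CPM with a median of 39.2, and RO-3306 cells 0 to 112 CPM with a median of 31.5. Of the control cells, 7 were above the RO-3306 maximum, and the groups otherwise overlapped. Summed, Hspa5 stood at 86.5 CPM (84.3 to 88.8) and 37.1 CPM (35.8 to 38.3), a log2 ratio of -1.20. This difference was not shared by the sets: it was 0.02 in A, -1.74 in B, -0.41 in C and -2.06 in D. Cell B4 held 34.2% of the control counts, and without it the ratio was -0.75. Rabepk itself, counted outside the shared stretch, had 90.2 CPM over control cells and 49.0 CPM over RO-3306 cells (-0.87).

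Of the lectin chaperones, Calr differed in direction among the sets and Canx was lower in each. Calr (chromosome 8, 85568717 to 85573560), which encodes the soluble lectin calreticulin, ranged from 4.96 to 1317 CPM over control cells and from 0 to 832 over RO-3306 cells. The median cell was higher in RO-3306, at 416 against 313 CPM. The sums went the other way, at 543 CPM (537 to 548) in control and 432 CPM (428 to 436) in RO-3306 (-0.33), with 6 control cells above every RO-3306 cell. Sets A and C had ratios of 0.42 and 0.83 and sets B and D of -1.41 and -0.49, and without set B the ratio of the sums was 0.16, so Calr had no settled direction. Canx (chromosome 11, 50184784 to 50216500) encodes calnexin, the membrane-bound counterpart. It ranged from 0 to 1641 CPM over control cells (median 504) and from 0 to 766 CPM over RO-3306 cells (median 308). Of the control cells, 8 exceeded the RO-3306 maximum, and 5 of 37 RO-3306 cells exceeded the control median. In the sums Canx had 570.1 CPM (564 to 576) and 313 CPM (309.5 to 317), a ratio of -0.86, with -0.28, -0.95, -1.29 and -1.26 in sets A to D. Canx was thus lower in RO-3306 in each set, in the sums and in the median cell.

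**Figure D2:**
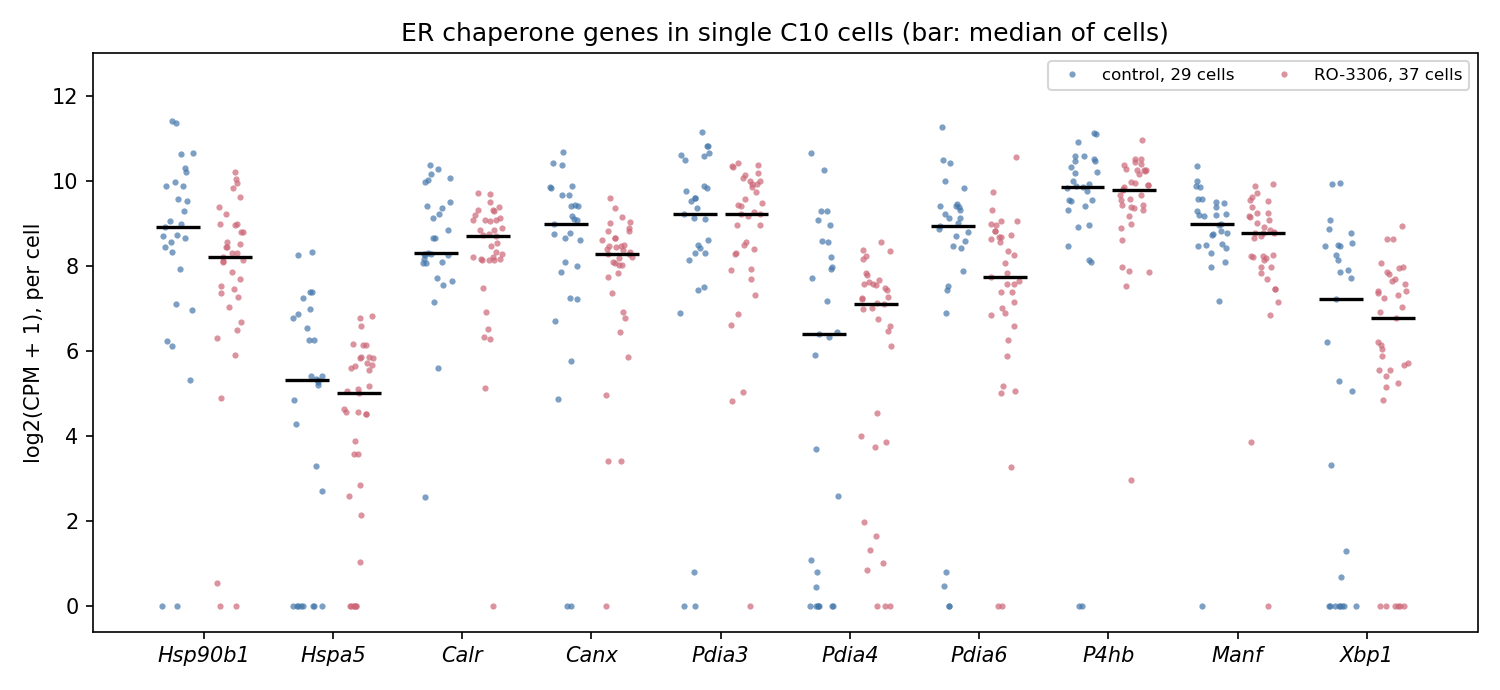
Level of each of the 10 genes in each kept cell, as log2 of CPM plus 1, for 29 control cells (blue) and 37 RO-3306 cells (red), with the median of the cells as a black bar. For every gene the highest cell is a control cell, and for Calr (416 against 313 CPM) and Pdia4 (136 against 83.6 CPM) the RO-3306 median lies visibly above the control median. The median control cell had fewer genes with a count (5177) than the median RO-3306 cell (6951).

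Among the disulfide isomerases, Pdia4 and Pdia6 had the larger differences and Pdia3 and P4hb the smaller. Pdia4 (chromosome 6, 47773075 to 47790446), an isomerase with several thioredoxin-like domains, spread widely over control cells, from 0 to 1609 CPM with a lower quartile of 0.363 and a median of 83.6. RO-3306 cells held 0 to 376 CPM with a median of 136. The median cell was thus higher in RO-3306, while 8 control cells lay above every RO-3306 cell and set the sum. Summed, Pdia4 had 265 CPM (261 to 269) and 143 CPM (140.5 to 145), a ratio of -0.89, with -0.03, -1.47, -1.38 and -1.36 in sets A to D. Pdia6 (chromosome 12, 17316590 to 17334786), which encodes the isomerase P5, held 0 to 2470.4 CPM over control cells (median 487) and 0 to 1517 CPM over RO-3306 cells (median 213). Of the RO-3306 cells, 7 of 37 were above the control median. The sums were 529.7 CPM (524 to 535) and 292 CPM (288 to 295), a ratio of -0.86, with -0.06, -2.51, -0.47 and -0.78 in sets A to D. Both genes had a ratio below 0 in each set, and the one nearest 0 was in set A for both.

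Pdia3 (chromosome 2, 121244383 to 121269168), which encodes the isomerase ERp57 that works with calreticulin and calnexin, had the same median cell in both groups, at 596 and 597 CPM. Its cells ranged from 0 to 2246 CPM in control and from 0 to 1374 in RO-3306, and the sums were 807 CPM (800.0 to 814) and 684 CPM (679 to 689), a ratio of -0.24. Sets A to D gave -0.36, 0.06, -0.69 and -0.56. P4hb (chromosome 11, 120451124 to 120464079) was the only one of the 10 with a count in every RO-3306 cell. It held 0 to 2226 CPM over control cells (median 927) and 6.78 to 1976 CPM over RO-3306 cells (median 877). The sums were 1150.2 CPM (1142 to 1158) and 865 CPM (859.5 to 871), a ratio of -0.41, with -0.26, -0.92 and -0.65 in sets A to C and 0.52 in D. Of the control cells, 7 lay above the RO-3306 maximum of Pdia3 and 2 above that of P4hb, and the groups otherwise overlapped. The sperm channel gene Catsper2, which overlaps 2.82% of Pdia3's span on the other strand, had 15.1 and 2.80 CPM. The overlaps of Canx, Pdia4 and Pdia6 with Gm46280, Mir704 and Atp6v1c2 covered 2, 77 and 65 nt.

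Manf (chromosome 9, 106765952 to 106769137) had, with Pdia3, the ratio nearest 0 in the sums and varied least of the 10 over control cells, with a coefficient of variation of 0.505. Its cells ranged from 0 to 1303 CPM in control (median 504) and from 0 to 969.8 CPM in RO-3306 (median 434). The sums of Manf were 524 CPM (518 to 529) and 443 CPM (438 to 447), a ratio of -0.24, with -0.66, -0.18, -0.13 and -0.09 in the sets. It was the single gene of which cell B4 did not hold the most control counts. That cell was A3, with 9.29%. Xbp1 (chromosome 11, 5470641 to 5475993), which encodes the transcription factor of the IRE1 branch, ranged from 0 to 988 CPM over control cells (median 147) and from 0 to 485 CPM over RO-3306 cells (median 109). Its sums were 220.5 CPM (217 to 224) and 145 CPM (143 to 148), a ratio of -0.60. Sets A to C gave -1.28, -1.31 and -0.54, and set D gave 6.52. In set D, 1 of 5 control cells had a count, of 2 reads in all, or 0.269 CPM (0.0326 to 0.973), against counts in 6 of 6 RO-3306 cells and 116 CPM. Counts over the whole gene do not tell spliced from unspliced Xbp1.

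Over the whole set, all 10 genes had a ratio below 0 in the sums, as did 59.0% of the 9374 genes whose mean level over the groups reached 5 CPM, a level that all 10 passed in both groups. The ratio was below 0 in each of the 4 lettered sets for 5 of the 10 (Hsp90b1, Canx, Pdia4, Pdia6 and Manf), against 10.3% of all genes. All genes here reach down to 5 CPM, whereas every member but Hspa5 had 143 CPM or more in both groups. Genes of like level were not taken as background, so the part of level in this contrast was not tested. Hsp90b1 and Hspa5 were lower by 2-fold or more in the sums, 2 of 10 against 24.2%. Hsp90b1 alone was also below 0 in each set, 1 of 10 against 6.43%, and none was higher by 2-fold or more with every set above 0, against 7.23%. The share lower by 2-fold was thus close to that of all genes. The median ratio of the 10 was -0.73 (quartiles -0.88 and -0.35), and that of all genes -0.22 (-0.98 and 0.43). The all-gene median is set by the scaling: TMM factors brought it to -0.02 with all 10 genes below 0 and a median of -0.52, and DESeq2 size factors to 0.01, with a median of -0.49 and Pdia3 at 0.00. All 10 stayed below the all-gene median under both scalings, Manf and Pdia3 by little. Each scaling uses a single factor per group and moves all ratios nearly alike, so this order could hardly change and is no check. From medians over cells, which could change it, 7 of the 10 were below the all-gene median of 0.00, as were 17.8% of all genes. The 5 genes with an ERSE had ratios from -1.49 to -0.33 (median -0.86) and the 4 with a window and no match from -0.89 to -0.24 (median -0.50), so the groups overlapped. The value of -0.89 is that of Pdia4, whose window was the less sure one. Outside the 10, 8 genes with an ERSE were measured, and 6 of these had a ratio below 0, with a median of -0.42. Those 6 include Dnajc3, which encodes a lumenal co-chaperone (-0.28), Creld2 (-0.26) and Syvn1, which encodes a ubiquitin ligase of ER-associated degradation (-0.56). The rest of the 6 were Hnrnpa3 (-0.86), Pan2 (-1.45) and Zfp57 (-1.27), and those above 0 were Alg12 (0.25) and Gm20560 (0.86). Of these 8, only Dnajc3 kept 1 sign over the lettered sets. Creld2 had 0.43, -1.28, 0.14 and 0.55 in sets A to D, and Syvn1 0.77, -2.75, 4.19 and -2.18. All 8 were named after their values were seen.

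**Figure D3:**
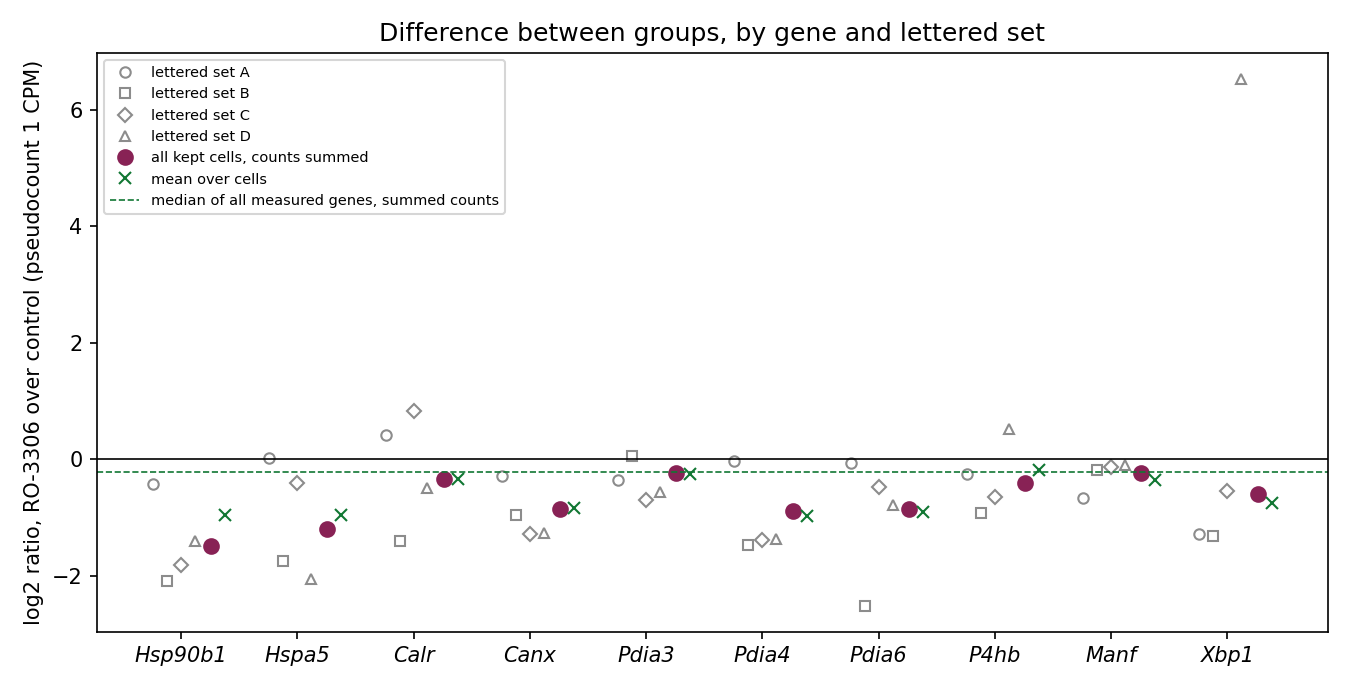
Log2 ratio of RO-3306 over control for each gene, from counts summed over all kept cells (filled circles), from means over cells (crosses) and within each lettered set (open symbols), with the median of all measured genes as a dashed line at -0.22. All filled circles lie below 0 with scaling to total counts, whereas DESeq2 size factors put Pdia3 at 0.00, and the triangle of Xbp1 at 6.52 rests on 2 control reads.

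The make-up of the sum differed as well, a measure that does not depend on library scaling. Hsp90b1 supplied 15.7% of the 10 genes' counts in control (exact binomial interval 15.6% to 15.8%) and 8.47% in RO-3306 (8.38% to 8.57%). Its share was lower in all 4 sets, with 10.3%, 19%, 19.2% and 12.9% in control against 9.21%, 9.15%, 9.02% and 6.92% in RO-3306. The median cell had 10.9% and 7.67%, and without B4 the control share was 14%. P4hb went from 20.7% to 23.6%, with a higher share in all 4 sets, and Pdia3 from 14.5% to 18.7%, with a higher share in 2 of 4. Calr and Manf had 9.74% and 9.40% in control and 11.8% and 12.1% in RO-3306. Shares add to a fixed total, so a lower share of Hsp90b1 raises those of the others.

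Per kb of mRNA, the measure used to compare levels between genes, Manf was highest in both groups, at 603 CPM per kb in control and 509.8 in RO-3306, and P4hb was next, at 402 and 303. In control these were followed by Hsp90b1 (317), Pdia3 (305), Calr (279), Pdia6 (249), Canx (133), Pdia4 (110.4) and Xbp1 (104). In RO-3306 the order was Pdia3 (259), Calr (222), Pdia6 (137), Hsp90b1 (113), Canx (73.1), Xbp1 (68.3) and Pdia4 (59.6), so that Hsp90b1 moved from rank 3 to rank 6. Hspa5 stood last at 33.1 and 14.2. Divided instead by the 584 nt of its mRNA outside the Rabepk span, it had 148 and 63.5. For all 9 pairs of neighbours in either order the interquartile ranges over cells overlapped. Introns were counted too, so these values are not mRNA levels alone.

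Most cells held counts of most of the 10 genes. All 10 were found in 14 control cells (of 29) and 27 RO-3306 cells (of 37), and fewer than 8 in 6 and 3 cells. With every cell thinned to 639000 counts, which left out 4 control and 3 RO-3306 cells, Pdia4 was found in 18 of 25 control cells (72%, interval 50.6% to 87.9%) and 30 of 34 RO-3306 cells (88.2%, 72.5% to 96.7%). Hspa5 was found in 20 and 29 of these cells and Xbp1 in 20 and 30, or 80% against 85.3% and 88.2%. At full depth Pdia4 was found in 22 of 29 control and 34 of 37 RO-3306 cells. The other 7 genes were each found in at least 23 of 25 and at least 32 of 34 thinned cells. All these intervals overlapped between the groups. Thinning made the counts of the cells equal, not the number of genes found in them. Cells without a gene that is otherwise abundant occurred in both groups: control cell C3 held 988 CPM of Xbp1 and 1303 CPM of Manf but no count of Hsp90b1, Hspa5, Pdia3, Pdia4, Pdia6 or P4hb. RO-3306 cell C11 held only P4hb, Manf and Pdia6. Both cells had the fewest genes with a count among kept cells of their group, 2109 in C3 and 2159 in C11.

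Across cells of equal depth, several chaperone and isomerase genes varied together, and others did not. Spearman's rho was computed within each group over cells that share a source, as a description. Over the 45 pairs of the 10 genes it had a median of 0.14 over 25 control cells (-0.22 to 0.58) and of 0.22 over the 34 RO-3306 cells (-0.33 to 0.57). Over all pairs of the 3692 genes that reached 50 CPM the medians were 0.04 and 0.03. Every member but Hspa5 had 143 CPM or more in both groups. Pairs of like level were not taken as background, so the part of level in this contrast was not tested. In control, Hspa5 with Pdia4 (0.58), Hsp90b1 with Pdia4 (0.57) and Hspa5 with Pdia3 (0.54) were above 0.5. In RO-3306 these were Hspa5 with Pdia3 (0.57), Calr with Pdia4 (0.56), Hspa5 with Pdia4 (0.54) and Hsp90b1 with Hspa5 (0.53). Hspa5 with Pdia3 and with Pdia4 was thus above 0.5 in both groups. The median rho with the other 9 genes was 0.31 and 0.29 for Hspa5, 0.28 and 0.30 for Hsp90b1, and 0.38 and 0.29 for Pdia6. For Manf it was 0.06 and 0.07, and for Xbp1 -0.04 and 0.03. Calr was as low in control, at 0.05, but had 0.29 in RO-3306. Among the other genes of at least 50 CPM, the 5 most like the sum of the 10 by the mean of both within-group rho values were Sparc (0.59 in control and 0.60 in RO-3306), Tmem176a (0.51 and 0.66), Lipa (0.58 and 0.56), Ephx1 (0.54 and 0.58) and Aldh2 (0.74 and 0.29). Their own ratios between groups went both ways, from -1.49 for Sparc, a secreted matrix glycoprotein, to 1.72 for Ephx1, the microsomal epoxide hydrolase.

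**Figure D4:**
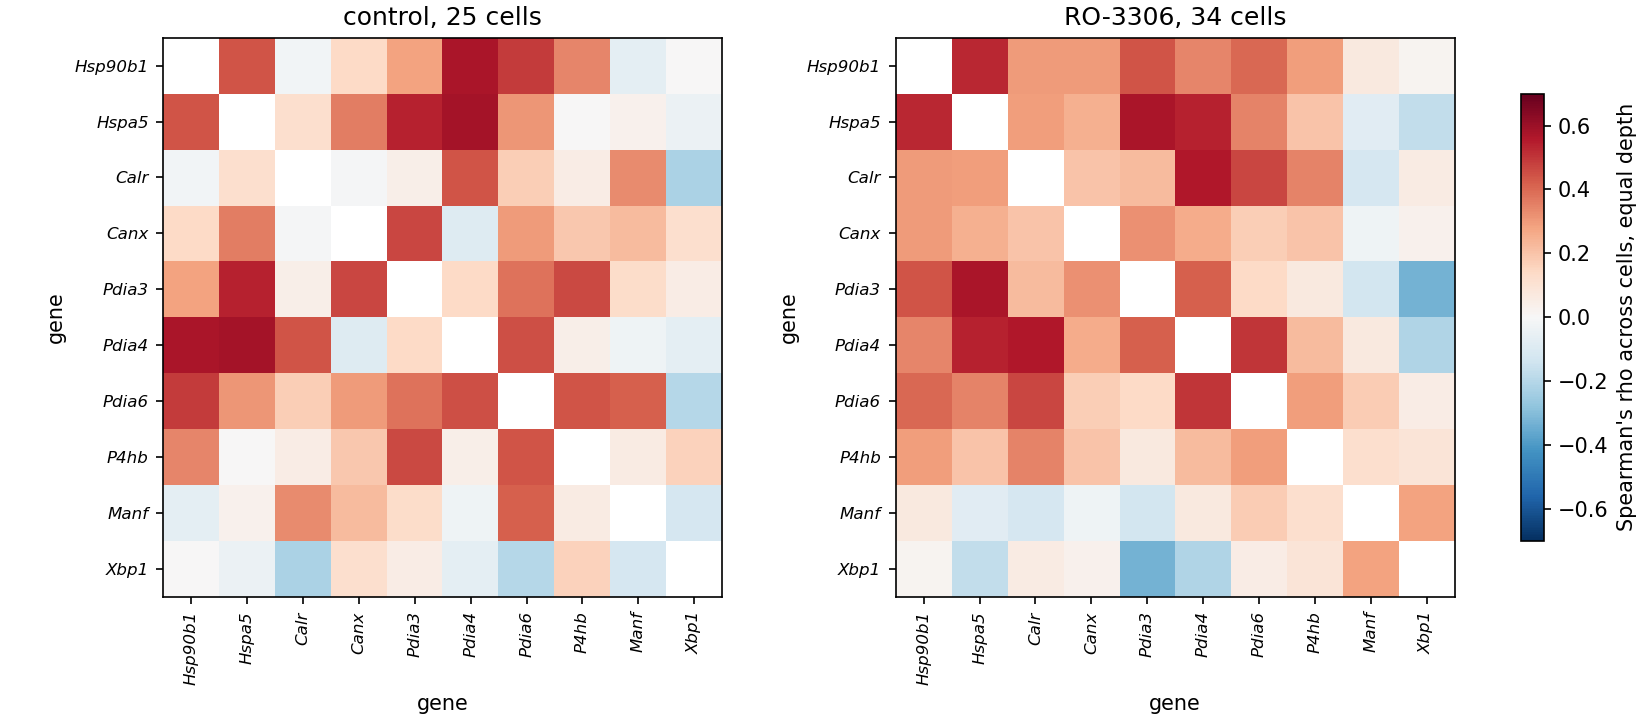
Spearman's rho between each pair of the 10 genes across single cells of equal depth, in 25 control cells (left) and in 34 treated cells (right), with red above 0 and blue below. The rows of Hspa5 and Pdia4 hold the highest values, up to 0.58, and the rows of Manf and Xbp1 are pale or blue in most places.

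Other genes of the secretory pathway were described as lists, with a gene called when it differed by 2-fold or more in the sums and had the same sign in each set. Of all genes, 6.43% were called lower and 7.23% higher by this rule, and 59.0% had a ratio below 0. These shares are the background for the counts of every list below, and no list was tested against them. Of 29 measured other ER chaperones and foldases, 20 had a ratio below 0 and 1 was called lower, the collagen chaperone gene Serpinh1 (266 to 113 CPM, -1.23). The list's median was -0.28. Txndc5, an isomerase gene, had 430.4 and 216 CPM (-0.99). Cnpy2 had a higher level in RO-3306 (209 to 404 CPM, 0.95), as did the cyclophilin gene Ppib (61.4 to 80.2 CPM, 0.38). Of 10 sensors and transcription factors of the unfolded protein response (median -0.45), Creb3l1 was called lower, at 124 and 34.8 CPM (-1.80), and Creb3l2 higher, at 4.21 and 23.6 CPM. In the PERK and ATF4 branch (9 measured, median 0.50) 2 genes were called higher. Ddit3, which encodes CHOP, had 60.9 and 566 CPM, and Atf3 1.41 and 29.7 CPM. Chac1 had 84.4 and 140.2 CPM (0.73) and Asns 538 and 417 CPM (-0.37). Atf4 itself had 1104 and 1046 CPM (-0.08). The median of the PERK and ATF4 list thus lay above the all-gene median of -0.22, and those of the sensors and of the 10 chaperone genes below it. For the sensors this did not hold in every set: their median was -0.14 and -1.50 in sets A and B but 2.11 and 2.54 in C and D, where all genes had medians of 0.41 and 0.24. The other ER chaperones and foldases also changed sign, with medians of -0.05, -0.91, 0.43 and 0.76 in sets A to D. So did the medians of the lists of ER-associated degradation, N-glycosylation, the translocon and cytosolic heat shock genes described below. Creb3l2 and Atf3 were named after their values were seen.

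Of 21 genes of ER-associated degradation (median -0.36), 1 was called higher and 1 lower: Edem2 had 29.5 and 162 CPM (2.42) and Nploc4 109 and 41 CPM (-1.38). Vcp, the ATPase that extracts the substrates, had 485 and 243 CPM (-0.99), and Ube2j2 108 and 209 CPM (0.95). Both catalytic subunits of the oligosaccharyltransferase were called lower, Stt3a at 467 and 205 CPM (-1.18) and Stt3b at 101 and 31.1 CPM (-1.66), the 2 called among 18 genes of N-glycosylation and the calnexin cycle (median -0.33). Krtcap2, an accessory subunit, had 225 and 302 CPM (0.42). The translocon and signal peptide list (23 genes, median -0.06) had 1 called lower, the channel subunit Sec61a1 (261 to 124 CPM, -1.07). Sec62 had 281 and 157 CPM (-0.84), and the signal peptidase subunits Spcs1 and Sec11c were higher, with ratios of 0.47 and 0.70. Of 13 genes of ER retrieval and calcium (median -0.28), 4 were called lower, among them Atp2a2, the ER calcium pump (138 to 34.1 CPM, -1.99), and Calu (469 to 130.1 CPM, -1.84), and 1 higher.

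Among chaperones outside the ER, of 21 cytosolic heat shock genes (median -0.18) 1 was called higher, Cryab (125 to 427 CPM, 1.76), and 1 lower, Hspa4 (162 to 49.5 CPM, -1.69). Hsp90aa1, the cytosolic relative of Hsp90b1, had 587 and 471 CPM (-0.32), and the co-chaperone ligase Stub1 104 and 143 CPM (0.46). None of 8 genes of the CCT chaperonin (median -0.41) and none of 7 mitochondrial chaperone genes (median -0.37) was called in either direction, with Cct3 at 331 and 169 CPM (-0.96) and Cct6a at 706 and 409.8 CPM (-0.78). Secreted matrix genes, cargo that the ER chaperones and P4hb help to fold, had the lowest median of these lists, -2.0 over 11 genes. All 11 had a ratio below 0 and 5 were called lower, among them Thbs1 (569.6 to 40.7 CPM, -3.77) and Col3a1 (603 to 83.6 CPM, -2.84). Thbs1 was close to 0 in set A, at -0.09, against -5.42, -3.78 and -5.40 in sets B to D. Col3a1 had -1.28, -3.66, -2.74 and -5.19 in sets A to D.

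**Figure D5:**
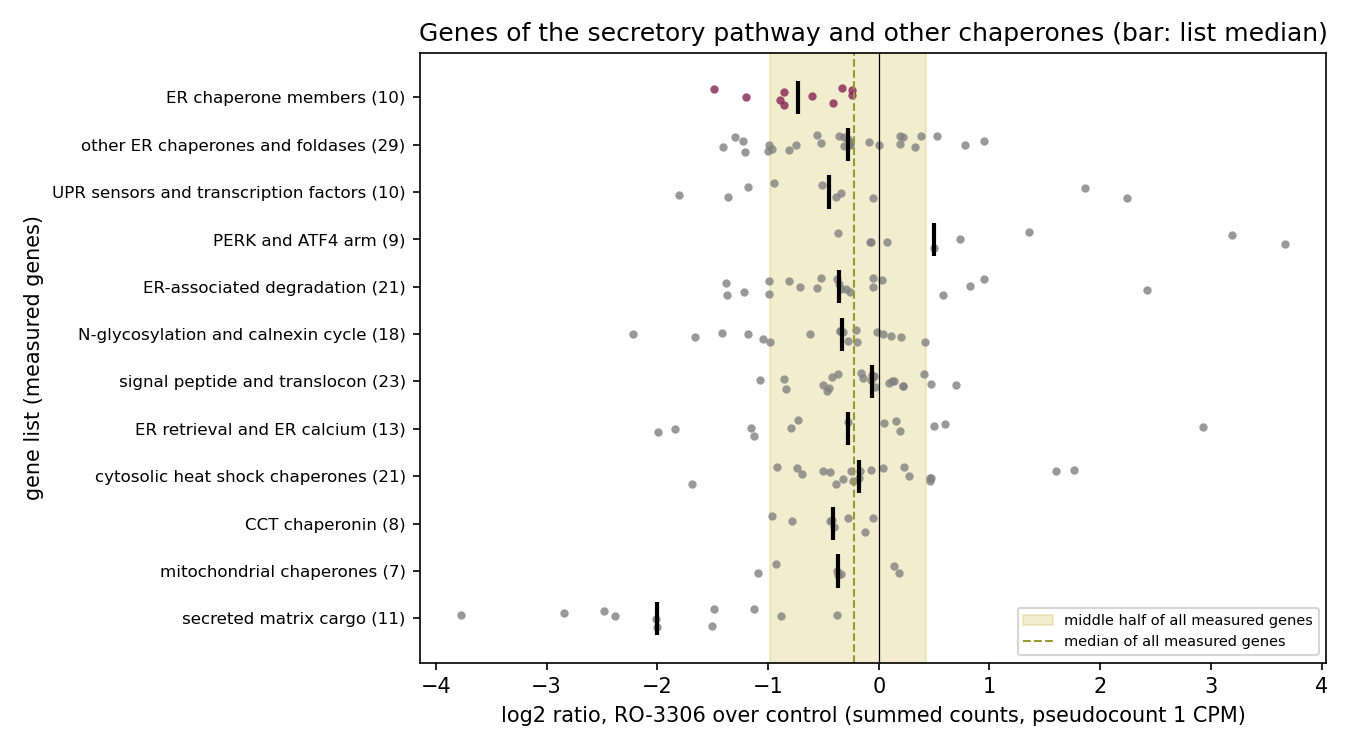
Log2 ratio of RO-3306 over control for each measured gene (points) of each list (rows), with the list's median as a black bar, the interquartile range of all measured genes shaded and their median dashed. The 10 ER chaperone genes run from -1.49 to -0.24 around -0.73 with scaling to total counts (up to 0.00, for Pdia3, with DESeq2 size factors), the PERK and ATF4 list has a median of 0.50, and secreted matrix cargo one of -2.0.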

How the data were processed

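Per the file headers, the authors made expected counts per gene with featureCounts 2.0.3 on GRCm39 with its RefSeq annotation, over whole gene spans, and split reads placed at several sites into fractions. No strand option is recorded, and by the tool's default reads over 2 gene spans are left out. The submitters' processing notes name STAR and FastQC, with versions not given in the sources used here. Per the labels' protocols, libraries were made with SMART-seq v4 and sequenced as single reads of 150 nt. They hold no molecular identifiers.

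Counts of kept cells were summed by group and divided by the group total to give CPM. Cells are not replicates, so no test was run. Poisson and Clopper-Pearson intervals at the 95% level used counts rounded to whole numbers. Cells were thinned to 639000 counts for detection and correlations. Lengths came from GENCODE M21 transcripts paired with RefSeq, and promoter windows from RefSeq (GRCm38.p6), matched by symbol for 9 of 10 genes. Python 3.11.15, numpy 2.4.6, pandas 2.3.3, scipy 1.17.1 and matplotlib 3.10.9 were used, with R 4.3.3, where TMM factors of edgeR 4.0.16 and size factors of DESeq2 1.42.0 served as alternative scalings.

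The 10 genes and all lists were chosen with earlier results of these data known. Named by rule were the 10 genes, the genes overlapping them, the 5 most correlated genes, and per list the 2 highest and 2 lowest ratios among genes of at least 20 CPM with the same sign in all 4 lettered sets. Other names were chosen after their values were seen and are marked so, or are controls and markers. Alternatives covered scaling, weighting of cells, depth, pseudocount, filters, length and each lettered set. The 30 libraries below the cell minimum and the protein data were left out. Among kept libraries, 0 pairs were identical.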

Additional observations from a re-analysis of the deposited data

Results flagged for a closer look

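The 11 RO-3306 libraries below the minimum of 50000 counts and 1000 genes, which no comparison used, still held counts of the 10 ER genes. They had 876 such counts of 1162603 in all, or 753 CPM (exact Poisson 95% interval 704 to 805), against 39 of 341166, or 114 CPM (81.3 to 156), in the 19 control libraries left out. A signal in unused data that is higher than in the control libraries left out likewise is what flagged this value. A count was present in 10 of the 11 and 9 of the 19 libraries, and D5 alone gave 506 of the 876. Both values are below those of kept cells, at 3665 and 5569.7 CPM.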

How the results depend on the processing

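The median ratio of the 10 genes (-0.73 from summed counts) stayed below 0 under all 17 alternatives. It was -0.52 with TMM factors, -0.49 with DESeq2 size factors, -0.40 with the median of genes of similar mRNA length taken off, -0.79 from means and -0.26 from medians over cells, and -0.69 with a minimum of 500000 counts and 3000 genes. It was -0.87, -0.40 and -0.77 without lettered set A, B or C, and -0.54 without control cell B4, an alternative chosen after seeing the data. The count of genes lower by 2-fold or more with the same sign in each set (1, Hsp90b1) became 5 without set A (Hsp90b1, Hspa5, Canx, Pdia4 and Pdia6) and 0 from means over cells. From medians over cells it was 1, but that gene was Pdia6. With a set left out, the rule asks for the same sign in the remaining sets only. The share of all genes that met the rule was not computed for these alternatives, so these counts have no background. Of 180 recomputed single-gene ratios, 108 moved beyond counting error. Below 0 were 175 of the 180, but these repeat the same 10 genes on largely the same counts and are not separate observations. Of all genes, 59.0% were below 0 in the main setting, 50.9% with TMM factors, 49.7% with DESeq2 size factors and 17.8% from medians over cells. Of the 180 ratios, 3 had the opposite sign: Calr at 0.41 and Pdia4 at 0.69 from medians over cells, and Calr at 0.16 without set B. The cause was not tested. Hsp90b1 ranged from -1.88 to -0.70 over 18 settings. The ratio of Xbp1 in set D rests on 5 control cells, of which 1 had a count. No paired analysis was possible because each group is 1 sample and no test was run. What the letters and numbers in the titles mean is not given.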

Other observations

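Genes that act directly on the 10 proteins were looked up after their values were seen. Receptors that return lumenal chaperones from the Golgi went different ways: Kdelr2 had 293 CPM in control cells and 169.6 in treated ones (log2 ratio -0.79, below 0 in each lettered set), Kdelr3 had 195 and 161 CPM (-0.28), and Kdelr1 42.4 and 48.5 CPM (0.19). Among cofactors of HSPA5, Hyou1 had 24.1 and 9.19 CPM (-1.30), found in 5 of 29 and 7 of 37 cells. Dnajb11 had 326 and 263 CPM (-0.31), found in 22 and 36 cells, Sdf2l1 99.0 and 113 CPM (0.19), and Dnajb9 11.7 and 20.8 CPM (0.78). Of the genes in this paragraph, only Kdelr2 kept 1 sign over the 4 lettered sets.

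Genes of calcium-binding proteins of the secretory pathway also parted. Rcn1 had 380.2 and 173 CPM (-1.13), below 0 in each set, while Rcn2 had 251 and 281 CPM (0.16) and Sdf4 247 and 349 CPM (0.50), both with mixed signs. Serpinh1, the collagen chaperone gene described above, was found in all 29 control cells and in 36 of 37 treated ones.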
